A study of Mus musculus with 12 samples.

Results

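Nos2, Gch1, Arg2, Arg1, Ass1, Asl and Odc1, the 7 genes described here, encode enzymes that make nitric oxide from arginine, supply the cofactor for it, rebuild arginine, or lead from arginine to ornithine and polyamines. They are 7 of the 24411 gene symbols in the deposited count table, and all 7 are in it. They were chosen from these pathways with fitted results of the same libraries already known, and which of those results were used is not recorded. Their fitted changes and calls come from a fit over all genes and are given as a description, from which nothing is concluded about the members. The gene lists set beside them below were also drawn up with earlier results of these data known. Counts of calls in those lists are likewise only a description. RNA was sequenced from mouse HoxB8 cells, an immortalised bone marrow line kept as progenitors by an estrogen-dependent Hoxb8, 24 h after estrogen was taken away in every group. All cells carried a pair of vectors, pMIG and pMICH, and the groups differ in what these held. In Asxl1-MT2/T618I, pMIG held Asxl1-MT2, a truncated form of the chromatin regulator Asxl1, and pMICH held CSF3R with the change T618I, a mutated receptor for granulocyte colony-stimulating factor. Only the receptor was present in Empty/T618I, only the truncation in Asxl1-MT2/Empty, and both vectors were empty in Empty/Empty. Each group had 3 libraries, lettered A to C in the table. Both genes are overexpressed from vectors in an immortalised line, and no label ties the replicate libraries to separate cultures. All p-values below therefore cover differences among libraries that could be technical.

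Nitric oxide synthases oxidise arginine to citrulline and nitric oxide and need tetrahydrobiopterin as a cofactor. The inducible enzyme, Nos2, is best known from activated macrophages and neutrophils of the mouse, and its activity is set largely by how much of it is made. Arginases compete for the same substrate and give ornithine, which Odc1 commits to polyamines, while Ass1 and Asl rebuild arginine from citrulline.

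Library totals ran from 9341984 to 10252291 counts. Levels are CPM, counts scaled to a common library total, with TMM factors, and a change was called at an adjusted p under 0.05 in edgeR's quasi-likelihood test with Benjamini-Hochberg adjustment over the 11578 genes tested. Asxl1 stood at 919 to 1086 CPM in Asxl1-MT2/T618I and 1678 to 1833 CPM in Asxl1-MT2/Empty, against 134 to 167 CPM in Empty/T618I and 116 to 125 CPM in Empty/Empty. The sources used here do not say whether construct reads were counted to the mouse genes. The library titled as the third of Empty/Empty carries a genotype label that names the T618I receptor, and nothing links the numbers in the titles to the letters in the table. Its group was taken from the title. Socs3, a feedback gene of cytokine receptors, stood at 151 to 176 CPM in Empty/T618I and at only 11.9 to 13.8 CPM across the Empty/Empty triplicate, and leaving out any of the 3 Empty/Empty libraries changed no call of a member against Empty/Empty. In bulk RNA, fewer cells of a type and less RNA per cell cannot be told apart.

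Nos2, the inducible nitric oxide synthase (chromosome 11, 78920787 to 78960254, plus strand; GENCODE vM21, GRCm38, as for all positions of members), was abundant only where the T618I receptor was present, and highest where the truncated Asxl1 was present as well. Its level was 247.8, 173.5 and 144.2 CPM in libraries A, B and C of Asxl1-MT2/T618I, and 25.2, 26.9 and 30.2 CPM in those of Empty/T618I. In Asxl1-MT2/Empty it had 0, 2 and 2 counts, and in Empty/Empty 0, 0 and 1 count, so both groups without the receptor lie near the limit of 3 counts over a group. The groups with and without the receptor do not overlap, nor do the groups with the receptor overlap each other. Asxl1-MT2/T618I exceeded Empty/T618I by 2.78 ± 0.17 on the log2 scale (SE), a call for higher. A fitted fold against the groups without the receptor depends on the small count that the model adds, so ratios of summed scaled counts are given with exact 95% intervals, which cover counting error only. Empty/T618I held 833 counts against 1 in Empty/Empty, a ratio of 812 with an interval from 145 to 32099. Asxl1-MT2/T618I held 5391 counts against 4 in Asxl1-MT2/Empty, a ratio of 1423 with an interval from 555 to 5224. Between Asxl1-MT2/Empty and Empty/Empty, 4 counts against 1 gave a ratio of 3.92 with an interval from 0.388 to 193, so a difference was not detectable at this depth. The interaction of Asxl1-MT2 with T618I, that is, whether the truncation's effect differed with and without the receptor, was not called for Nos2 (1.14 ± 3.49), and those few counts enter it.

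**Figure D1:**
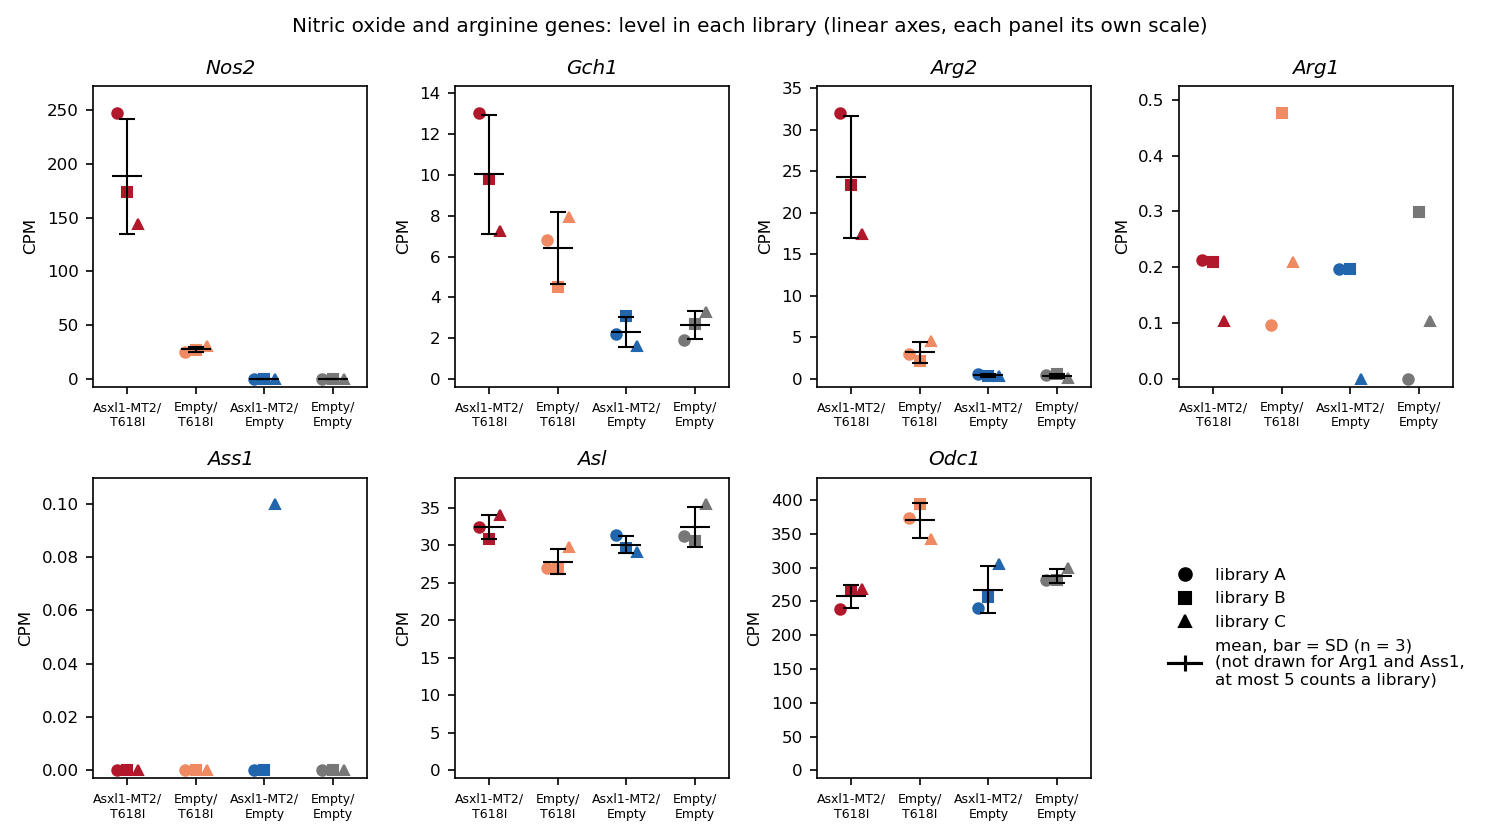
Level of each of the 7 genes in CPM (vertical axes, linear, each panel with its own scale) in the 12 libraries, by group; symbols give the library letter, and bars the mean and SD of 3 libraries. Nos2 and Arg2 are high in Asxl1-MT2/T618I, lower in Empty/T618I and near 0 in Asxl1-MT2/Empty and Empty/Empty, while Odc1 is highest in Empty/T618I.

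The other nitric oxide synthases were scarce. Nos1, the neuronal enzyme, had 2 counts in all in Asxl1-MT2/T618I and 2 in Empty/T618I, with 7 where only the truncation was present and 4 in Empty/Empty. Nos3, the endothelial enzyme, had 17 counts in Asxl1-MT2/T618I and 12 in Empty/T618I, with 21 in Asxl1-MT2/Empty and 12 in Empty/Empty, and neither gene passed the filter on low counts. Among 11 tested genes of nitric oxide synthases and signalling, 4 were called higher and 2 lower in Asxl1-MT2/T618I against Empty/T618I, with a median log2 change of 0.12 beside 0.01 over all genes tested, of which 25.4% were called higher and 18.5% lower. Spsb1 and Spsb2, adaptors of a ubiquitin ligase known to mark the Nos2 protein for degradation, both rose. Spsb1 averaged 6.52 ± 3.61 CPM in Asxl1-MT2/T618I and 0.522 ± 0.134 CPM in Empty/T618I (SD, n = 3 each; log2 change 3.60 ± 0.48, adjusted p = 1.12e-05 in edgeR's test). Spsb2 averaged 21.2 ± 1.60 CPM in Asxl1-MT2/T618I and 10.7 ± 1.91 CPM in Empty/T618I (0.98 ± 0.17, edgeR adjusted p = 0.000167). Nos1ap, an adaptor of the neuronal synthase, rose as well, to 12.3 ± 1.54 CPM in Asxl1-MT2/T618I, against 3.57 ± 0.297 CPM in Empty/T618I (1.78 ± 0.20, edgeR adjusted p = 1.3e-06). Ddah2, a relative of the enzyme that removes methylated arginines, went with the receptor instead, at 7.23 ± 0.604 CPM in Empty/T618I and 1.68 ± 0.200 CPM in Empty/Empty (2.09 ± 0.25, edgeR adjusted p = 3.33e-06). In Empty/T618I against Empty/Empty, 2 of the 11 were called higher and 0 lower, with a median of 0.07 beside 0.0037 over all genes, of which 17.6% were called higher and 15.9% lower.

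Gch1 (chromosome 14, 47153895 to 47189413, minus strand) encodes GTP cyclohydrolase, the enzyme that starts tetrahydrobiopterin synthesis and limits its rate. It was higher in both groups with the receptor. Its level was 13.1, 9.82 and 7.23 CPM in Asxl1-MT2/T618I and 6.82, 4.49 and 7.93 CPM in Empty/T618I, against 2.18, 3.06 and 1.60 CPM in Asxl1-MT2/Empty and 1.91, 2.68 and 3.30 CPM in Empty/Empty. The groups with the receptor lie above those without it, but they overlap each other, since Asxl1-MT2/T618I library C is below Empty/T618I library C. Empty/T618I exceeded Empty/Empty by 1.28 ± 0.30 (log2 change), and Asxl1-MT2/T618I exceeded Asxl1-MT2/Empty by 2.13 ± 0.29, both called higher. The step of 0.65 ± 0.25 between Asxl1-MT2/T618I and Empty/T618I was called too, but not with DESeq2, not with only these groups in the fit, and not when any of 6 libraries was left out (Empty/Empty B, Empty/T618I A or B, Asxl1-MT2/Empty A, Asxl1-MT2/T618I A or B). The fitted step ranged from 0.41 to 0.67 over these 8 settings. Asxl1-MT2/Empty and Empty/Empty did not differ beyond their spread (-0.21 ± 0.34), and the interaction was not called (0.85 ± 0.43).

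Gch1 and Odc1 had fitted changes of opposite sign in Asxl1-MT2/T618I against Empty/T618I, although the Gch1 call there was lost in 8 settings. In Empty/T618I against Empty/Empty both were called higher. The promoters of the pair are shown because of the first comparison. They come from RefSeq (GRCm38.p6), whose table matched 3 of the 7 genes (Gch1, Odc1 and Ass1), and run from 250 bases before to 50 after the transcription start, 5′ to 3′ on the gene's strand. Capitals mark matches, on either strand, to the core of kB sites, GGGNNNNNCC, to the TATA box, spelled TATAAA, to the CAAT box, spelled CCAAT, or to the GC box, spelled GGGCGG.
Gch1, chr14:47189364-47189663, minus strand: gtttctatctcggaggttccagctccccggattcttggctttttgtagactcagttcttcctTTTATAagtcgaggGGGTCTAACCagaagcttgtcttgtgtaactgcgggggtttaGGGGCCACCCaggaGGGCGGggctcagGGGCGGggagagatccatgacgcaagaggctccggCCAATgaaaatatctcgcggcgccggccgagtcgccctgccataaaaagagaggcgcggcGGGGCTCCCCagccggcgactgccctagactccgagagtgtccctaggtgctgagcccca
Odc1, chr12:17544623-17544922, plus strand: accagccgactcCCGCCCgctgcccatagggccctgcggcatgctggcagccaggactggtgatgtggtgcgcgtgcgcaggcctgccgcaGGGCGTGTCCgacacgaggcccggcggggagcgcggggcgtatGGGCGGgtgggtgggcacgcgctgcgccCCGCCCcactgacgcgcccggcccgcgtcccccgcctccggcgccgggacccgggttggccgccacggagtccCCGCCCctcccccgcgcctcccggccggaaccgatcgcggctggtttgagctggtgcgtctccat
The Gch1 promoter holds 3 matches to the kB core, 1 to the TATA box, 1 to the CAAT box and 2 to the GC box. Its TATA match begins at base -188 from the start and reads on the opposite strand, so it is a match of letters only. The Odc1 promoter holds 1 match to the kB core and 4 to the GC box. Neither holds a match in this window to the STAT sites known as GAS, spelled TTCNNNGAA, or to the E-box that Myc is known to bind, spelled CACGTG. Of 32851 promoters of the same length, 50.8% hold the kB core, 13.6% the TATA box, 37.4% the CAAT box, 35.7% the GC box, 8.30% the GAS letters and 7.15% the E-box. Matches to the kB core and to the GC box can overlap each other.

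Of the other 7 tetrahydrobiopterin genes, all tested, 2 were called higher and 2 lower in Asxl1-MT2/T618I against Empty/T618I (median log2 change 0.15), and 0 higher and 2 lower in Empty/T618I against Empty/Empty (median -0.20). The shares over all genes were 25.4% higher and 18.5% lower in the first comparison, and 17.6% and 15.9% in the second. Gchfr, the regulator through which tetrahydrobiopterin feeds back on Gch1, was at 7.96, 7.31 and 4.54 CPM in Asxl1-MT2/T618I and at 1.83, 1.34 and 1.15 CPM in Empty/T618I. Both other groups lay between 0.890 and 2.47 CPM. Its change of 2.18 ± 0.32 passed the test (edgeR adjusted p = 3.39e-05), as did its interaction, 2.03 ± 0.50 (edgeR adjusted p = 0.00816). In Empty/T618I against Empty/Empty, where Gch1 was called higher, Gchfr showed no call (-0.25 ± 0.39, edgeR adjusted p = 0.664), and the difference between the genes was not tested. Pcbd1, which helps to regenerate the cofactor, fell to 0.385, 0.382 and 0 CPM in Empty/T618I, against 5.13, 4.37 and 4.23 CPM in Empty/Empty (-4.06 ± 0.41, edgeR adjusted p = 5.2e-07). It was partly higher again in Asxl1-MT2/T618I, at 0.956, 1.04 and 0.620 CPM, although that rise of 1.69 ± 0.56 over Empty/T618I (edgeR adjusted p = 0.0205) lost its call when Empty/T618I C or Asxl1-MT2/T618I A or B was left out. Qdpr, which recycles the cofactor, fell in Asxl1-MT2/T618I against Empty/T618I (log2 change -0.45 ± 0.098, edgeR adjusted p = 0.0013). Pts, the next enzyme of the synthesis, was lower in Empty/T618I than in Empty/Empty (-0.49 ± 0.11, edgeR adjusted p = 0.00271). Spr, which completes it, and Pcbd2, a relative of Pcbd1, were called in none of the 6 comparisons, with Spr between 11.7 and 17.9 CPM and Pcbd2 between 10.3 and 17.2 CPM in all libraries.

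Arg2, the mitochondrial arginase (chromosome 12, 79130777 to 79156301, plus strand), followed the order of Nos2 at a lower level. It had 32.1, 23.3 and 17.5 CPM in Asxl1-MT2/T618I and 2.98, 2.10 and 4.59 CPM in Empty/T618I. In Asxl1-MT2/Empty it had 0.593, 0.395 and 0.299 CPM and in Empty/Empty 0.403, 0.596 and 0.103 CPM, which is 13 and 11 counts in all. The groups with the receptor are separate from each other and from the groups without it, and the groups without it overlap. Empty/T618I exceeded Empty/Empty by 3.07 ± 0.50 and Asxl1-MT2/T618I exceeded Empty/T618I by 2.92 ± 0.27 on the log2 scale, both called higher. Asxl1-MT2/T618I exceeded Asxl1-MT2/Empty by 5.78 ± 0.37, also a call, while Asxl1-MT2/Empty and Empty/Empty differed by 0.21 ± 0.75, without one. The interaction was fitted at 2.71 ± 0.87 and called higher. It was no longer called when any of 6 libraries was left out (Empty/Empty A or B, Empty/T618I A or B, Asxl1-MT2/Empty B or C), with values from 2.19 to 2.65, and it rests on the few counts of the groups without the receptor. The end of Arg2 overlaps Vti1b, which lies on the opposite strand, from 79156017 to 79156301, and no source used here gives the strand setting of the counting, so reads there cannot be told apart. Vti1b itself was at 54.4 to 61.7 CPM in Asxl1-MT2/T618I and 39.8 to 43.8 CPM in Empty/T618I, against 40.2 to 44.8 CPM in Asxl1-MT2/Empty and 36.7 to 46.4 CPM in Empty/Empty.

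Arg1, the cytosolic arginase (chromosome 10, 24915221 to 24927484, minus strand) known from the liver and from macrophages activated by interleukin-4, was near the detection limit everywhere. It had 2, 2 and 1 counts in Asxl1-MT2/T618I, 1, 5 and 2 in Empty/T618I, 2, 2 and 0 in Asxl1-MT2/Empty and 0, 3 and 1 in Empty/Empty. It did not pass the filter on low counts. The ratio of Asxl1-MT2/T618I to Empty/T618I was 0.664 with an exact interval from 0.171 to 2.30, so a difference was not detectable at this depth. Most of the mouse genes known for alternative activation were likewise too low to test: of 10, only Chil3, Mgl2 and Pdcd1lg2 were tested. Chil3, a chitinase-like protein also found in neutrophil precursors, rose to 368 ± 29.1 CPM in Asxl1-MT2/T618I, against 48.6 ± 12.6 CPM in Empty/T618I (2.92 ± 0.22, edgeR adjusted p = 4.04e-07). Mgl2, a lectin of macrophages and dendritic cells, rose as well between these groups (2.20 ± 0.44, edgeR adjusted p = 0.00069) but was lowest with the receptor, at 3.68 ± 1.84 CPM in Asxl1-MT2/T618I and 0.793 ± 0.361 CPM in Empty/T618I, against 19.6 ± 5.02 CPM in Asxl1-MT2/Empty and 16.8 ± 2.47 CPM in Empty/Empty. Pdcd1lg2, a ligand of the PD-1 receptor, went with the receptor alone, at 4.99 ± 0.467 CPM in Asxl1-MT2/T618I and 5.36 ± 0.248 CPM in Empty/T618I, against 0.231 ± 0.0588 CPM in Asxl1-MT2/Empty and 0.234 ± 0.150 CPM in Empty/Empty.

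Ass1 (chromosome 2, 31470207 to 31520672, plus strand) and Asl (chromosome 5, 130011258 to 130029247, minus strand) are the enzymes that rebuild arginine from citrulline, and only Asl was expressed at a level that could be tested. Ass1 had 1 count in all, in Asxl1-MT2/Empty library C, and 0 in the other 11 libraries. A count of 0 allows up to 0.105 CPM in Asxl1-MT2/T618I, 0.0985 CPM in Empty/T618I and 0.101 CPM in Empty/Empty (3 counts over a group, counting error only). Some genes that nearly every cell uses are also at or near 0 in this table. Oaz1, an antizyme that controls Odc1, had 2 counts in 1 library and Amd1, an enzyme of polyamine synthesis, 0 in all 12, so the 0 of Ass1 is a listed value and not a statement of absence. Asl was at 32.4, 30.8 and 34.1 CPM in Asxl1-MT2/T618I and 26.9, 26.8 and 29.7 CPM in Empty/T618I. Without the receptor it was at 31.3, 29.7 and 29.1 CPM in Asxl1-MT2/Empty and 31.2, 30.6 and 35.5 CPM in Empty/Empty. It was called in none of the 6 comparisons. Libraries A and B of Empty/T618I were the lowest of the 12, while its library C lay among those of Asxl1-MT2/Empty. Every library of Empty/T618I lay below every library of Asxl1-MT2/T618I and of Empty/Empty. Empty/T618I had a log2 change of -0.22 ± 0.096 against Empty/Empty, and Asxl1-MT2/T618I differed from Empty/T618I by 0.22 ± 0.096.

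Of 15 tested genes of arginine supply and use, 7 were called lower and 1 higher in Asxl1-MT2/T618I against Empty/T618I, with a median log2 change of -0.31 beside 0.01 over all genes, of which 18.5% were called lower and 25.4% higher. The gene called higher was Slc7a7, the light chain of an exchanger for arginine and neutral amino acids. It was at 8.02 ± 0.702 CPM in Asxl1-MT2/T618I and 2.29 ± 0.306 CPM in Empty/T618I, against 6.24 ± 0.245 CPM in Asxl1-MT2/Empty and 6.12 ± 1.21 CPM in Empty/Empty. It fell in Empty/T618I against Empty/Empty (-1.41 ± 0.21, edgeR adjusted p = 3.59e-05) and rose in Asxl1-MT2/T618I against Empty/T618I (1.80 ± 0.20, edgeR adjusted p = 1.71e-06). Slc7a6, its close relative, fell to 63.9 ± 3.15 CPM in Asxl1-MT2/T618I, against 98.8 ± 5.04 CPM in Empty/T618I (-0.63 ± 0.089, edgeR adjusted p = 2.06e-05). Slc7a1, the main cationic amino acid carrier of many cells, was lower by a smaller step, at 173 ± 8.55 CPM in Asxl1-MT2/T618I and 221 ± 16.2 CPM in Empty/T618I (-0.35 ± 0.086, edgeR adjusted p = 0.00313). Slc3a2, the heavy chain that Slc7a6 and Slc7a7 need, rose with the receptor to 431 ± 55.2 CPM in Empty/T618I, against 178 ± 5.19 CPM in Empty/Empty (1.27 ± 0.085, edgeR adjusted p = 2.7e-09). Aldh18a1, which leads from glutamate towards ornithine and proline, was highest in Empty/T618I. It was at 111 ± 1.81 CPM in Asxl1-MT2/T618I and 164 ± 15.3 CPM in Empty/T618I (-0.56 ± 0.078, edgeR adjusted p = 1.65e-05), against 117 ± 1.68 CPM in Empty/Empty, above which Empty/T618I rose (0.49 ± 0.078, edgeR adjusted p = 8.42e-05). Oat, which converts ornithine, and Slc25a15, which carries it into mitochondria, were lower in Asxl1-MT2/T618I than in Empty/Empty (-0.61 ± 0.096 and -0.83 ± 0.12, edgeR adjusted p = 3.92e-05 and 2.44e-05). Prodh, which degrades proline, and Gamt, which completes creatine synthesis, fell in Asxl1-MT2/T618I relative to Asxl1-MT2/Empty (-0.83 ± 0.14 and -1.80 ± 0.54, edgeR adjusted p = 8.96e-05 and 0.0104), Gamt at 12 counts in all in Asxl1-MT2/T618I against 45 in Asxl1-MT2/Empty; the Gamt call was lost without Asxl1-MT2/Empty A or Asxl1-MT2/T618I B. Over the 15 genes, 3 were called higher and 3 lower in Empty/T618I against Empty/Empty, beside 17.6% and 15.9% of all genes, with a median of 0.0019 beside 0.0037 over all genes.

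Odc1 (chromosome 12, 17544794 to 17551505, plus strand), which makes putrescine from ornithine and limits polyamine synthesis, was highest in Empty/T618I. It had 238, 265 and 268 CPM in Asxl1-MT2/T618I and 373, 394 and 342 CPM in Empty/T618I, and 240, 256 and 306 CPM in Asxl1-MT2/Empty and 281, 281 and 299 CPM in Empty/Empty. Every library of Empty/T618I lies above the other 9, and Asxl1-MT2/T618I lies below Empty/Empty and overlaps Asxl1-MT2/Empty. Empty/T618I exceeded Empty/Empty by 0.36 ± 0.091 (log2 change), called higher, and Asxl1-MT2/T618I was below Empty/T618I (log2 change -0.52 ± 0.091), called lower. Asxl1-MT2/T618I was not called against Asxl1-MT2/Empty (-0.05 ± 0.091), nor against Empty/Empty (-0.16 ± 0.091), although its 3 libraries lie below all 3 of Empty/Empty. The interaction of -0.42 ± 0.13 was called lower, but not when any of 6 libraries was left out (Empty/Empty A or B, Empty/T618I A or B, Asxl1-MT2/Empty C, Asxl1-MT2/T618I A), with values from -0.43 to -0.31.

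Of 14 tested polyamine genes, 4 were called higher and 6 lower in Asxl1-MT2/T618I against Empty/T618I, with a median of -0.17, beside 25.4% and 18.5% of all genes. The genes that fell include the synthases downstream of Odc1. Srm, spermidine synthase, averaged 247 ± 39.9 CPM in Asxl1-MT2/T618I and 405 ± 61.3 CPM in Empty/T618I (-0.71 ± 0.13, edgeR adjusted p = 0.00031), and Sms, spermine synthase, fell by a smaller step (-0.49 ± 0.094, edgeR adjusted p = 0.000448). The genes that rose include enzymes that act on the products. Smox, spermine oxidase, was at 24.1, 19.1 and 13.0 CPM in Asxl1-MT2/T618I, 2.11, 1.91 and 2.71 CPM in Empty/T618I, 1.29, 1.09 and 0.798 CPM in Asxl1-MT2/Empty and 0.403, 0.596 and 0.516 CPM in Empty/Empty. Its step between the first pair was 3.06 ± 0.24 (edgeR adjusted p = 3.12e-08). Sat1, which acetylates spermidine and spermine, rose to 108 ± 13.5 CPM in Asxl1-MT2/T618I, against 51.5 ± 5.97 CPM in Empty/T618I (1.07 ± 0.11, edgeR adjusted p = 4.04e-07), whereas it fell in Empty/T618I against Empty/Empty (-0.58 ± 0.11, edgeR adjusted p = 0.000319). Atp13a2, a lysosomal polyamine exporter, was at 284 ± 68.5 CPM in Asxl1-MT2/T618I and 114 ± 23.2 CPM in Empty/T618I, against 46.6 ± 1.81 CPM in Empty/Empty, with both steps called (1.32 ± 0.16 and 1.29 ± 0.17, edgeR adjusted p = 1.04e-05 and 2.39e-05). Paox, which oxidises acetylated polyamines, went the other way and was lowest in Asxl1-MT2/T618I, at 12.2 ± 2.73 CPM, against 21.2 ± 2.34 CPM in Empty/Empty (-0.79 ± 0.15, edgeR adjusted p = 0.000226). Oaz2, an antizyme, was higher in Asxl1-MT2/T618I than in Empty/T618I (0.64 ± 0.11, edgeR adjusted p = 0.000121). In Empty/T618I against Empty/Empty, 5 of the 14 were called higher and 3 lower, with a median of 0.18, beside 17.6% and 15.9% of all genes.

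Counts of calls among the members stand beside the share of all tested genes called the same way, and nothing is read from them, since the members were chosen with these contrasts known. Of the 5 members that passed the filter on low counts, 3 were called higher (Nos2, Arg2 and Gch1) and 1 lower (Odc1) in Asxl1-MT2/T618I against Empty/T618I, where 25.4% of all genes were called higher and 18.5% lower. In Empty/T618I against Empty/Empty, 4 were called higher (Nos2, Arg2, Gch1 and Odc1) and 0 lower, where 17.6% and 15.9% of all genes were. In Asxl1-MT2/T618I against Asxl1-MT2/Empty, Nos2, Arg2 and Gch1 were called higher, where 26.9% of all genes were called higher and 22.8% lower. The same 3 were called higher in Asxl1-MT2/T618I against Empty/Empty, beside 27.4% of all genes higher and 23.0% lower. For the interaction, 1 member (Arg2) was called higher and 1 (Odc1) lower, beside 14.1% and 5.55% of all genes. In Asxl1-MT2/Empty against Empty/Empty, 0 of the 5 were called by edgeR's test or by DESeq2, and 0 had an unadjusted p under 0.05, beside 1.21% of all genes called higher and 0.553% lower. The comparisons with Empty/T618I and with Empty/Empty share libraries and are not independent of each other.

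**Figure D2:**
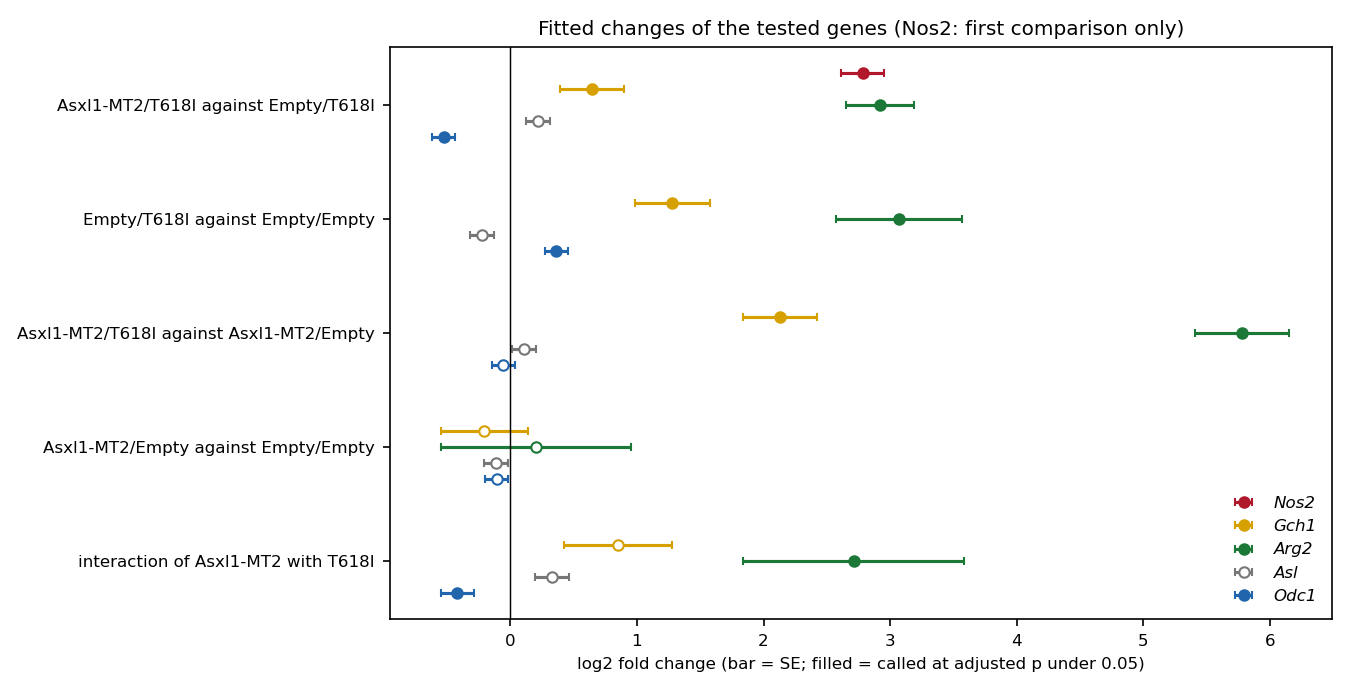
Fitted log2 fold change (horizontal axis) with its SE for the 5 tested genes in 4 comparisons and the interaction; filled points were called at an adjusted p under 0.05. Nos2 is drawn only for Asxl1-MT2/T618I against Empty/T618I (2.78), since the other groups hold at most 4 counts. Arg2 lies far right of 0 wherever a group with the receptor is set against one without it, and Odc1 lies left of 0 in the first comparison and right of it in the second.

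Per kilobase of exon (GENCODE vM21 gene models, since the authors' annotation is not given in the sources used here), Odc1 had the highest level of the 7 in every group. It averaged 75.5 ± 4.87 CPM per kb in Asxl1-MT2/T618I and 109 ± 7.67 CPM per kb in Empty/T618I, against 84.4 ± 3.07 CPM per kb in Empty/Empty. Nos2 came next in Asxl1-MT2/T618I, at 42.7 ± 12.1 CPM per kb, ahead of Arg2 at 17.0 ± 5.15 CPM per kb, Asl at 6.71 ± 0.340 CPM per kb and Gch1 at 1.61 ± 0.467 CPM per kb. In Empty/T618I, Nos2 at 6.21 ± 0.572 CPM per kb and Asl at 5.76 ± 0.344 CPM per kb lay within their spread of each other, and Arg2 stood at 2.26 ± 0.885 CPM per kb. In both groups without the receptor Asl came second, at 6.22 ± 0.237 CPM per kb in Asxl1-MT2/Empty and 6.71 ± 0.550 CPM per kb in Empty/Empty, with Gch1, Arg2 and Nos2 all lower (Gch1 averaged 0.364 and 0.421 CPM per kb in these groups). The ratio of Nos2 to Arg2 per kb was 2.50, 2.41 and 2.67 in the Asxl1-MT2/T618I libraries and 2.74, 4.15 and 2.13 in the Empty/T618I libraries, so the groups overlap. The ratio of Nos2 to Gch1 was 26.9, 25.0 and 28.3 in Asxl1-MT2/T618I and 5.23, 8.50 and 5.39 in Empty/T618I, which do not overlap.

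Of 22 tested inducers and regulators of these genes, 17 were called higher and 2 lower in Asxl1-MT2/T618I against Empty/T618I, with a median log2 change of 0.55, where 25.4% of all genes were called higher and 18.5% lower and their median was 0.01. In Empty/T618I against Empty/Empty, 13 were called higher and 2 lower, with a median of 0.44. Of all genes, 17.6% were called higher and 15.9% lower there, with a median of 0.0037. The list was drawn up with earlier results of these data known, so nothing is read from these counts. Cebpb, a transcription factor of myeloid cells, averaged 332 ± 36.9 CPM in Asxl1-MT2/T618I and 172 ± 11.0 CPM in Empty/T618I, against 129 ± 25.6 CPM in Asxl1-MT2/Empty and 98.8 ± 23.5 CPM in Empty/Empty. The receptors for interleukin-4 and interleukin-13 were among the largest changes. Il4ra rose with T618I to 492 ± 34.1 CPM in Empty/T618I, against 53.1 ± 1.47 CPM in Empty/Empty (3.21 ± 0.11, edgeR adjusted p = 5.46e-13). Il13ra1 was at 88.3, 63.4 and 40.1 CPM in Asxl1-MT2/T618I and 6.15, 4.39 and 10.0 CPM in Empty/T618I (3.23 ± 0.31, edgeR adjusted p = 2.87e-06), with 6 counts in all in Asxl1-MT2/Empty and 16 in Empty/Empty. Il1b, an inflammatory cytokine, was at 36.1, 24.9 and 15.6 CPM in Asxl1-MT2/T618I and 5.29, 3.63 and 5.01 CPM in Empty/T618I (2.46 ± 0.33, edgeR adjusted p = 2.62e-05). Il6, another such cytokine, was lower in this comparison, at 7.96, 5.74 and 5.58 CPM in Asxl1-MT2/T618I and 16.3, 7.64 and 19.7 CPM in Empty/T618I (-1.18 ± 0.31, edgeR adjusted p = 0.006). Irf8, a transcription factor of monocytes, fell to 0.917 ± 0.116 CPM in Empty/T618I, against 3.78 ± 0.313 CPM in Empty/Empty (-2.02 ± 0.44, edgeR adjusted p = 0.00161), and was higher in Asxl1-MT2/T618I, at 5.36 ± 1.29 CPM (2.53 ± 0.42 over Empty/T618I, edgeR adjusted p = 0.000125). Myc, a known activator of Odc1, fell to 193 ± 23.9 CPM in Asxl1-MT2/T618I, against 351 ± 52.0 CPM in Empty/T618I (-0.86 ± 0.11, edgeR adjusted p = 1.14e-05). It showed no call in Empty/T618I against Empty/Empty (-0.12 ± 0.11, edgeR adjusted p = 0.436), where Odc1 was called higher. The part of Myc in the changes of Odc1 was not tested.

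The arginine methyltransferases use arginine residues of proteins rather than free arginine. Of 7 tested, 6 were called lower and 0 higher in Asxl1-MT2/T618I against Empty/T618I, with a median of -0.49, where 18.5% of all genes were called lower and 25.4% higher and their median was 0.01. Prmt5, the main enzyme for symmetric dimethylation, averaged 139 ± 9.03 CPM in Asxl1-MT2/T618I and 203 ± 15.5 CPM in Empty/T618I, against 157 ± 6.53 CPM in Empty/Empty. It fell in the first pair (-0.54 ± 0.083, edgeR adjusted p = 4.62e-05) and rose in Empty/T618I against Empty/Empty (0.37 ± 0.083, edgeR adjusted p = 0.00188). Prmt1, the main enzyme for asymmetric dimethylation, fell in Asxl1-MT2/T618I against Empty/T618I as well (-0.49 ± 0.091, edgeR adjusted p = 0.000282), as did Prmt7, which monomethylates (-0.58 ± 0.11, edgeR adjusted p = 0.000261). In Empty/T618I against Empty/Empty, 1 of the 7 was called higher and 0 lower, with a median of 0.23, beside 17.6% and 15.9% of all genes. Prmt3 and Prmt6, which dimethylate asymmetrically, were lower in Asxl1-MT2/T618I than in Empty/Empty (-0.48 ± 0.091 and -0.36 ± 0.11, edgeR adjusted p = 0.0003 and 0.0127), Prmt6 not without Asxl1-MT2/T618I A or C.

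Set against the groups without the receptor, the same lists gave the counts that follow. Of all genes tested, 26.9% were called higher and 22.8% lower in Asxl1-MT2/T618I against Asxl1-MT2/Empty (median log2 change -0.02), and 27.4% and 23.0% against Empty/Empty (median -0.01). In Asxl1-MT2/T618I against Asxl1-MT2/Empty, 18 of the 22 inducers and regulators were called higher and 2 lower (median log2 change 1.08), against Empty/Empty 17 and 1 (1.11). For polyamine genes these counts were 5 higher and 3 lower of 14 against Asxl1-MT2/Empty, and 5 and 5 against Empty/Empty. For arginine supply and use they were 1 higher and 5 lower of 15 in each of the 2 comparisons, and for tetrahydrobiopterin 1 and 3 of 7 against Asxl1-MT2/Empty and 1 and 4 against Empty/Empty. Genes of nitric oxide synthases and signalling gave 5 higher and 1 lower of 11 in each, and the methyltransferases 0 higher with 2 lower of 7 against Asxl1-MT2/Empty and 4 lower against Empty/Empty. For the interaction, 22 of the 79 tested genes of the 7 lists were called higher and 8 lower, 13 of the higher ones among inducers and regulators, where 14.1% of all genes were called higher and 5.55% lower. Over all 79 genes, 0 were called in Asxl1-MT2/Empty against Empty/Empty by edgeR or by DESeq2. Of all genes tested, edgeR called only 1.21% higher and 0.553% lower there, so nothing is read from this 0. Of the 79, 12 had an unadjusted p under 0.05 in edgeR's test, and the share of all genes under it is not reported here.

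**Figure D3:**
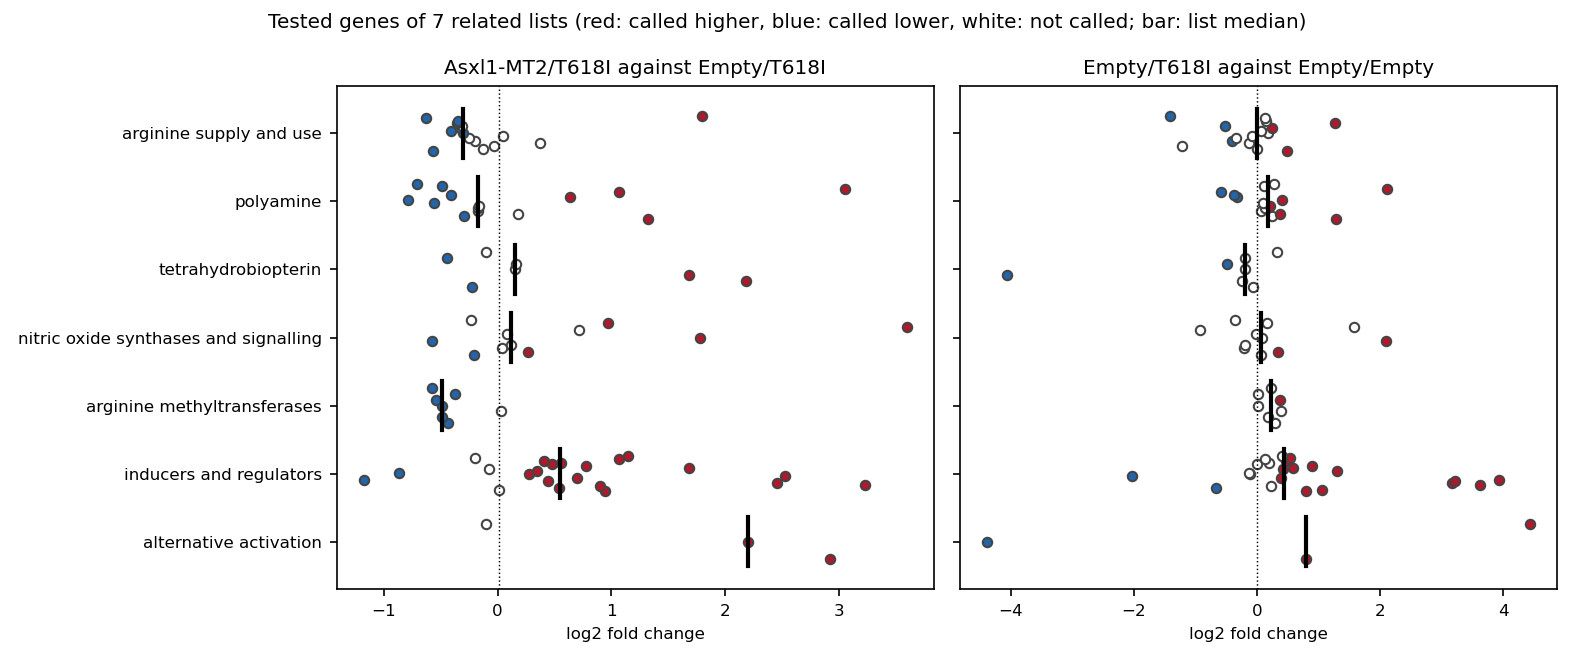
Fitted log2 fold change (horizontal axes) of every tested gene of 7 related lists in Asxl1-MT2/T618I against Empty/T618I (left) and Empty/T618I against Empty/Empty (right). Red points were called higher, blue points lower and white points not called; thick bars are list medians and the dotted line is the median of all genes tested. Methyltransferases lie left of 0 on the left panel (median -0.49), and inducers and regulators lie mostly right of it in both panels (medians 0.55 and 0.44).

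Markers of mature neutrophils were higher in the comparisons in which Nos2, Arg2 and Gch1 were called higher. Odc1 was also called higher in Empty/T618I against Empty/Empty, but lower in Asxl1-MT2/T618I against Empty/T618I, and Asl was called in neither direction. The 7 neutrophil markers include the granule proteases Mmp8 and Mmp9 and the calcium-binding proteins S100a8 and S100a9. Their summed level was 20815, 15660 and 12745 CPM in libraries A, B and C of Asxl1-MT2/T618I. In those of Empty/T618I it was 3604, 2893 and 2790 CPM. It was 990 to 1317 CPM in Asxl1-MT2/Empty and 949 to 1284 CPM in Empty/Empty. All 7 markers were called higher in Asxl1-MT2/T618I against Empty/T618I and in Empty/T618I against Empty/Empty, beside 25.4% and 17.6% of all genes. None was at 0 in any group. The list includes Csf3r, the gene of the overexpressed receptor, at 1688, 1334 and 967 CPM in Asxl1-MT2/T618I and 386 to 456 CPM in Empty/T618I. Without the T618I vector, Csf3r was at 253 to 320 CPM in Asxl1-MT2/Empty and 232 to 337 CPM in Empty/Empty. Its step was 0.53 ± 0.19 in Empty/T618I against Empty/Empty and 1.63 ± 0.19 in Asxl1-MT2/T618I against Empty/T618I. Nos2, Arg2 and Gch1 have the same order of libraries within Asxl1-MT2/T618I as this sum, with A highest and C lowest. Asxl1 and Socs3, which are in no marker list, have this order there too. Within Empty/T618I the sum was likewise highest in A and lowest in C, but Nos2 had the opposite order, and Arg2 and Gch1 were highest in C and lowest in B. The part of the neutrophil markers in the changes of these genes was not tested.

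Macrophage markers had much lower sums than the neutrophil markers but were also highest in Asxl1-MT2/T618I, with Empty/T618I next. The 10 genes summed to 253, 233 and 184 CPM in libraries A, B and C of Asxl1-MT2/T618I and to 90.0, 80.7 and 94.5 CPM in those of Empty/T618I, against 55.7 to 60.7 CPM in Asxl1-MT2/Empty and 56.0 to 66.6 CPM in Empty/Empty, with Marco at 0 in all 4 groups and the complement genes among those too low to test. Of the 4 macrophage genes tested, 3 were called higher and 0 lower in Asxl1-MT2/T618I against Empty/T618I, beside 25.4% and 18.5% of all genes. Fcgr1 was not called there (-0.04 ± 0.18). In Empty/T618I against Empty/Empty, 3 were again called higher and 0 lower, beside 17.6% and 15.9% of all genes. Cd68 was the gene not called in that comparison (-0.28 ± 0.14). In both groups with the receptor the order of libraries in this sum is that of Arg2 and Gch1. Socs3, which is in no marker list, has the same order in both groups. The part of the macrophage markers was not tested either. The 10 mast cell and basophil markers were high in both groups with the receptor, at 3252 to 3614 CPM in Asxl1-MT2/T618I and 3231 to 5819 CPM in Empty/T618I, against 687 to 740 CPM in Asxl1-MT2/Empty and 1106 to 1266 CPM in Empty/Empty. All 10 were called higher in Empty/T618I against Empty/Empty, beside 17.6% of all genes. In Asxl1-MT2/T618I against Empty/T618I, 0 were called higher and 6 lower, beside 25.4% and 18.5% of all genes. Within Empty/T618I they were lowest in library B, which was also lowest for Arg2 and Gch1 and for Il6, and this too was not tested. The granulocyte progenitor markers, which define the labelled cell type, were at 13891 to 18323 CPM in Asxl1-MT2/T618I and 15569 to 18394 CPM in Empty/T618I, against 37428 to 41832 CPM in Asxl1-MT2/Empty and 33294 to 41973 CPM in Empty/Empty, none at 0. Eosinophil markers summed to 172 to 371 CPM in Asxl1-MT2/T618I and 156 to 299 CPM in Empty/T618I, against 141 to 145 CPM in Asxl1-MT2/Empty and 229 to 316 CPM in Empty/Empty. Erythroid markers stayed at or under 11.4 CPM. Stromal and lymphoid markers summed to at most 5.17 CPM in any library.

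**Figure D4:**
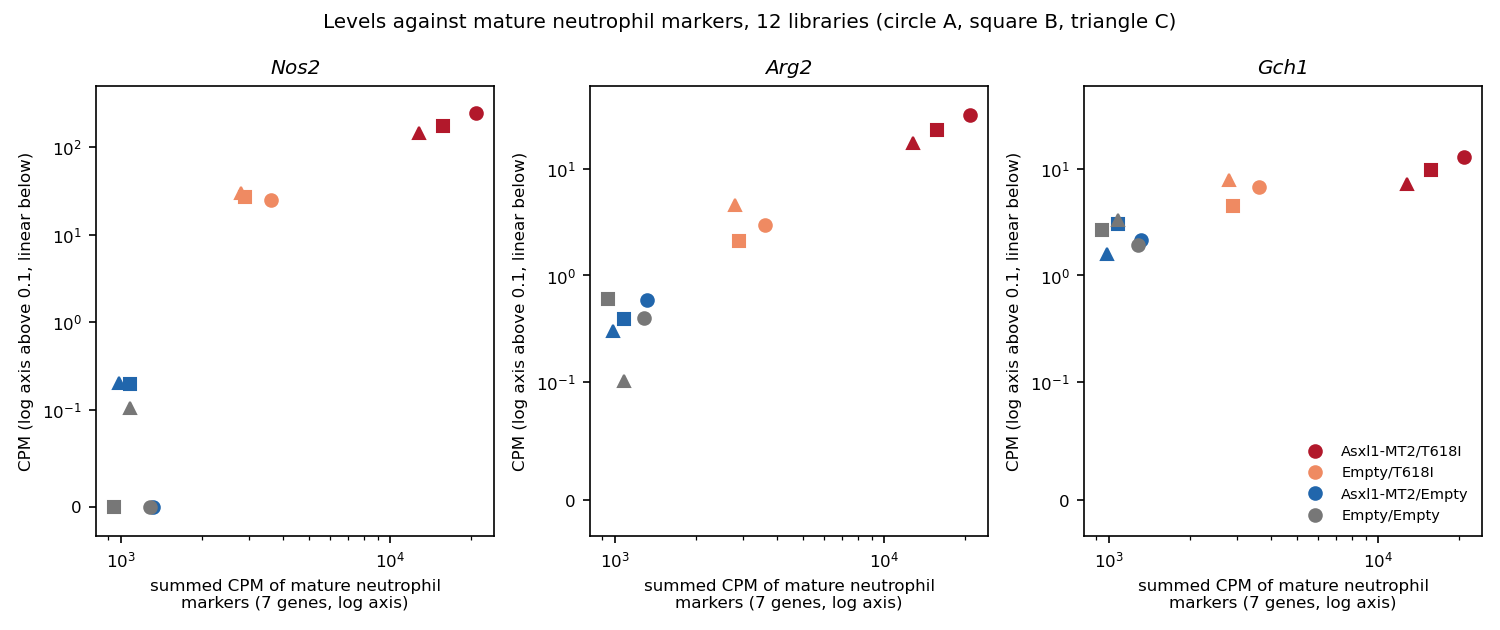
Level of Nos2, Arg2 and Gch1 in CPM (vertical axes, logarithmic above 0.1 and linear below) against the summed CPM of 7 mature neutrophil markers (horizontal axes, logarithmic) in the 12 libraries. Colours give the group and symbols the library letter. The 3 Asxl1-MT2/T618I libraries lie farthest right in each panel, with library A (20815 CPM of markers) the highest in all 3 genes, and the libraries without the receptor lie at the lower left.

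The genes whose group profile was most like that of each tested member were ranked by the root mean square (RMS) difference of centred mean log2 CPM over the 4 groups. Such a ranking describes a profile and no more. For Nos2 the nearest were Entpd3, Spint1 and Cd38, at RMS differences of 0.45, 0.67 and 0.77. Entpd3, an enzyme that splits extracellular nucleotides, averaged 87.6 ± 24.0 CPM in Asxl1-MT2/T618I and 18.8 ± 1.92 CPM in Empty/T618I, against 0.0987 ± 0.171 CPM in Asxl1-MT2/Empty and 0.0663 ± 0.115 CPM in Empty/Empty. For Arg2 they were Amica1, 2010005H15Rik and Rin2 (0.12, 0.13 and 0.17), with Amica1, an adhesion molecule of leukocytes, at 12.9 ± 5.96 CPM in Asxl1-MT2/T618I and 1.63 ± 0.571 CPM in Empty/T618I. For Gch1 they were Cd244, a receptor of the SLAM family, Gpr146 and Jund, a subunit of AP-1 (0.032, 0.037 and 0.063). The profile of Odc1 was closest to Farsb, a subunit of a tRNA synthetase, Shmt2, a mitochondrial enzyme of serine metabolism, and 2410127L17Rik (0.013, 0.016 and 0.018). Asl was nearest to Tmem129, Znf41-ps and Dgkz (0.0081, 0.0095 and 0.010). The nearest genes of Nos2 lie farther from it than those of the other members, and its profile rests on 5 counts in the groups without the receptor.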

How the data were processed

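The authors deposited raw counts per gene symbol, 1 column for each of 12 libraries. Trimmomatic, STAR, DESeq2 and the build mm10 are named in the submitters' processing notes; versions, roles, annotation and strand setting are not given in the sources used here. Libraries were prepared by BGI from RNA taken with a Qiagen kit, per the labels' protocols.

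Counts were filtered with filterByExpr, scaled with TMM factors (0.919 to 1.03) and fitted over all 12 libraries, with a mean per group, by edgeR 4.0.16 (robust quasi-likelihood test; R 4.3.3). DESeq2 1.42.0 was an alternative. The script was tested on simulated counts. SE is the log2 change divided by the root of the F statistic. Members and lists were chosen with earlier results of these data known. Named genes are all members, tetrahydrobiopterin genes, up to 3 called genes of largest change per list and comparison, and the 3 nearest profiles of each tested member; Cebpb and Myc were named after their values were seen. Nos1, Nos3, Srm, Sms, Oaz1, Oaz2, Amd1, Slc7a1, Vti1b and Socs3 are further such additions. Replicate libraries differed by more than sampling noise. Gucy1a1, Gucy1b1 and Prmt9 were not analysed here. Values of some listed genes are not reported here.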

Additional observations from a re-analysis of the deposited data

Results flagged for a closer look

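The edgeR interaction term, at an adjusted p under 0.05, was called for the genes below, each given on the log2 scale. It asks whether the truncation's effect differed between cells with and without the T618I receptor. Besides members, only up to 3 called genes of largest change per list are given. Of the 79 tested genes of the lists, 22 were called higher and 8 lower, beside 14.1% and 5.55% of all genes. Among the members, which were chosen with these fits known, Arg2 had 2.71 and Odc1 -0.42, and each call was lost when any of 6 libraries was left out. In arginine supply, Slc7a7 had 1.77 and Aldh18a1 -0.49. Among polyamine genes, Smox had 2.01, Atp13a2 1.65 and Sat1 0.85. In tetrahydrobiopterin synthesis Gchfr had 2.03, and among genes of nitric oxide signalling Nos1ap had 1.14. The methyltransferases Prmt5, Prmt7 and Prmt1 had -0.55, -0.44 and -0.39. Prmt7 lost its call in 9 and Prmt1 in 7 of 17 alternatives. Among inducers and regulators, Il1b had 4.67, Il13ra1 4.62 and Irf8 1.88. Of the alternative activation genes, Chil3 had 3.72 and Mgl2 1.98. The values of Il1b and Il13ra1 rest on 3 and 6 counts in Asxl1-MT2/Empty and on 15 and 16 counts in Empty/Empty. Calls of Smox, Nos1ap, Il1b, Il13ra1 and Irf8 were lost in some alternatives, as given below.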

How the results depend on the processing

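Alternatives were DESeq2, RLE scaling, no filter on low counts, a mean of at least 1 CPM, only the groups compared, the replicate block and each of the 12 libraries left out in turn. No member changed direction where it was called. No label pairs the libraries by letter, and 7 of 18 same-letter pairs had deviations correlated above 0.1 (median 0.044). Outside Asxl1-MT2/T618I, correlations were 0.147 to 0.168 between A libraries and 0.181 to 0.220 between C libraries. They were -0.226 to -0.116 there between A and C libraries of different groups, and -0.023 to 0.045 between B libraries. Same-letter pairs with an Asxl1-MT2/T618I library ran from -0.061 to 0.106. Whether libraries of a letter were handled together was not tested. With the letter as a replicate block, 1 of the 79 listed genes (Chil3, lower) was called in Asxl1-MT2/Empty against Empty/Empty, in place of 0. Over left-out libraries this count ran from 0 to 1, and the number of members called for the interaction from 0 to 2. The causes were not tested. Listed genes called for the interaction ran from 24 to 38 over left-out libraries, against 30 with all. Calls of Chil3 in Empty/T618I against Empty/Empty were lost with no filter and without Empty/T618I library A (adjusted p up to 0.0653), and those of Gamt, Prmt6 and Prmt7 against Asxl1-MT2/Empty or Empty/Empty without 2 or 3 libraries each. For the interaction, Prmt7 was lost in 9 and Prmt1 in 7 of 17 alternatives (adjusted p up to 0.122 and 0.121), Il1b in 4, Il13ra1 and Irf8 in 3, Smox in 2 and Nos1ap in 1. Low counts limit what can be said of Arg1, Ass1 and, without the receptor, Nos2 and Arg2.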
